A study of Rattus norvegicus with 3 samples.

Results

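The genes described here supply granulosa cells with sterols and fatty acids: the enzymes that build cholesterol, the regulators that sense it, the proteins that take it up, store it or export it, and the enzymes that make, desaturate, elongate and activate fatty acids. They were chosen as 46 named genes, of which 44 had at least 1 probe set annotated to that gene alone, 78 probe sets of the 31099 on the array and 44 genes of 14218. Hmgcs1 and Npc1 were not analysed here. The cells were primary granulosa cells from Sprague-Dawley females, immature rats aged 24 to 25 days. They were taken by puncture of follicles 48 h after an injection of PMSG, a gonadotropin of pregnant mares that drives follicles to the preovulatory stage. All 3 groups of cells had been infected with an adenovirus at 50 pfu per cell, removed after 2 h. The control group received a green fluorescent protein virus (Ad-GFP) and no stimulus. The stimulated group received Ad-GFP and, from 24 h after infection, 10 uM forskolin with 20 nM phorbol 12-myristate 13-acetate (FSK/PMA) for 6 h, which raise cAMP and turn on protein kinase C in place of the ovulatory hormone. In the NFIL3 group the virus carried NFIL3 (Ad-NFIL3), a basic leucine zipper transcription factor, and the same FSK/PMA was added. Each group was 1 Affymetrix array of RNA pooled from 3 experiments, so no test between groups could be made. An Ad-NFIL3 array without FSK/PMA was not analysed here.

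Granulosa cells turn to progesterone production at ovulation, and cholesterol is the substrate. A cell can make cholesterol from acetyl-CoA through mevalonate, isoprenoids, squalene and lanosterol, take it up from lipoproteins, or free it from stored esters. When sterols in the endoplasmic reticulum are low, SCAP carries the SREBP factors to the Golgi for cleavage, and they switch on the genes of sterol and fatty acid synthesis. INSIG proteins hold SCAP back when sterols are plentiful. The liver X receptors (LXR) sense oxysterols and switch on the exporters ABCA1 and ABCG1.

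Values are deposited MAS5 signals, a brightness per probe set on a linear scale. Signals under 126, the overall median, were raised to that floor before log2 was taken. A gene is called measured for a pair of arrays if either of them exceeded the floor. Each gene is read from its brightest probe set. Of the 44 genes 43 were measured. Nr1h3, which encodes LXR alpha, had signals of 82.4 in control cells, 5.02 after FSK/PMA and 69.0 under Ad-NFIL3, all under the floor. Technical error was gauged from genes with 2 probe sets above the floor on both arrays, by how far their log2 differences disagreed. The robust SD this gave for the difference of a single probe set was 0.33 with FSK/PMA and 0.23 with NFIL3. No other measure of error was available. Error common to a whole array and differences between cultures are not in it. Nfil3 itself read 564 in control cells, 1321 after FSK/PMA and 5882 under Ad-NFIL3, and how far its probe set reads the viral transcript was not tested. All 9 granulosa markers on the array were measured, with summed signals of 81145, 61959.7 and 34847 in the same order, though Cyp19a1, the aromatase, was under the floor in the control. All 5 adipocyte markers (Adipoq, Plin1, Fabp4, Cidec and Lep) stayed under the floor on every array.

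The first comparison asked how the supply genes differ after FSK/PMA. Most stood higher: 13 of 43 were at least 2-fold higher (30.2%), where 7.43% of all 9395 measured genes were, and 3 were at least 2-fold lower (6.98%), where 11.4% of all genes were. The 13 became 10 with cyclic loess normalisation, 12 with quantile normalisation and 16 with arrays scaled to a common median. At 1.5-fold the counts were 23 higher and 4 lower, beside 14.9% and 24.0% of all genes. The median log2 difference was 0.65 over the supply genes and -0.10 over all genes. The largest difference was that of Scd, the stearoyl-CoA desaturase, and the lowest was that of Abca1, the cholesterol exporter. Scaling the arrays to a common median moved the all-gene split from 698 higher and 1072 lower (39.4% higher) to 856 and 852 (50.1%), and the all-gene median from -0.10 to 0.03. With a floor at the 75th percentile, which keeps brighter genes, 38 supply genes and 6035 genes in all were measured. The all-gene split was then 420 higher and 402 lower (51.1% higher), with a median of -0.04. The all-gene share that stood lower thus depended on the floor.

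**Figure D1:**
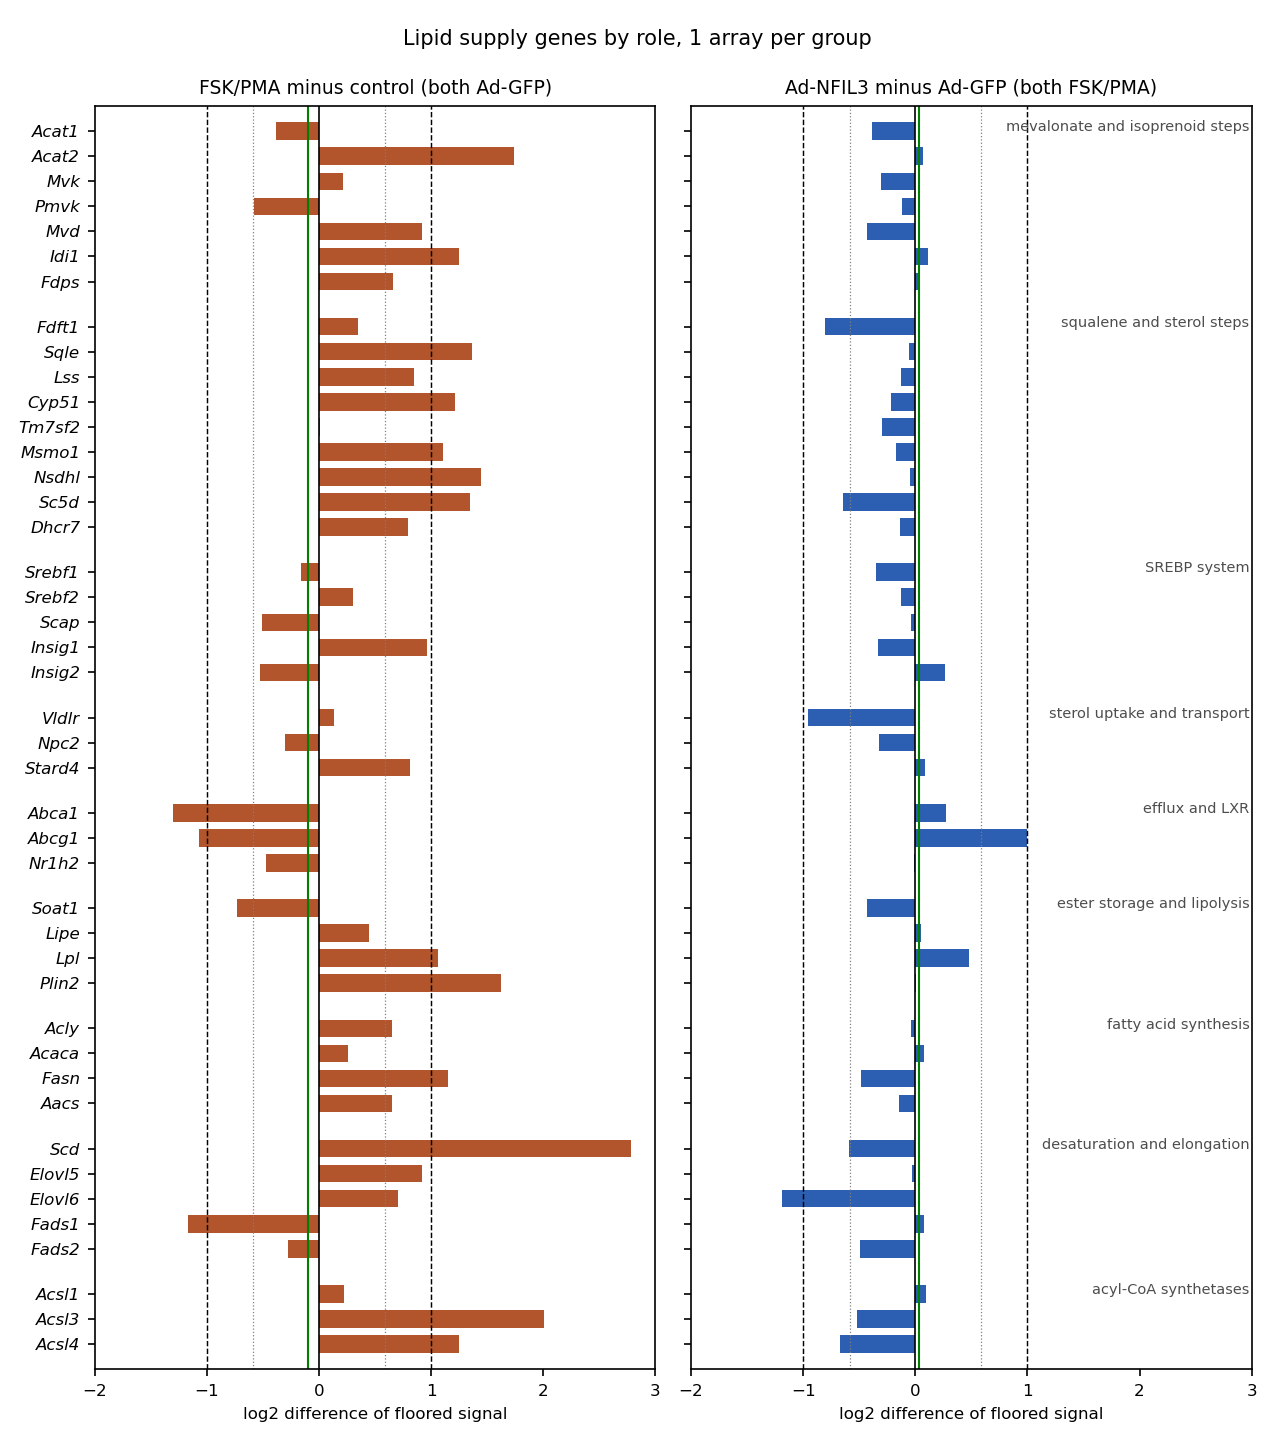
Log2 difference of the floored signal for the 43 measured lipid supply genes, grouped by role, with FSK/PMA against control on the left and Ad-NFIL3 against Ad-GFP under FSK/PMA on the right (1 array per group, no error bars). Dashed lines mark 2-fold, dotted lines 1.5-fold and the green line the median of all measured genes; 14 of the 16 sterol synthesis bars point to the right on the left panel (Acat1 and Pmvk point to the left), and 13 of 16 point to the left on the right panel.

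In the early, mevalonate and isoprenoid part of sterol synthesis, 4 of 7 genes were at least 1.5-fold higher with FSK/PMA (57.1%, beside 14.9% of all measured genes). Acat2, the cytosolic thiolase that joins acetyl-CoA units, had signals of 2057 in control cells, 6842 under FSK/PMA alone and 7171 where NFIL3 was added; later triplets keep this order. Both stimulated arrays were high, and the FSK/PMA difference was 3.33-fold. Idi1, the isomerase that makes the reactive isoprene unit, had 17089, 40546 and 43904, which was 2.37-fold higher with FSK/PMA. Its second probe set gave 7584, 33053 and 33477, a larger log2 difference of 2.12 against 1.25. Mvd, mevalonate diphosphate decarboxylase, had 532, 1005 and 745, 1.89-fold higher with FSK/PMA. Fdps, which makes farnesyl diphosphate, had 9667, 15255 and 15629, 1.58-fold higher, but 0.36 on the log2 scale with cyclic loess normalisation in place of 0.66.

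The remaining early genes stayed within 1.5-fold on their brightest probe sets. Acat1, the mitochondrial thiolase of ketone and isoleucine metabolism, had signals of 2398, 1832 and 1401, lowest on the NFIL3 array. Pmvk, phosphomevalonate kinase, had 989, 661 and 609, a log2 difference of -0.58 with FSK/PMA. Mvk, mevalonate kinase, had 789, 917 and 744 on its brightest probe set and 353, 665 and 547 on a dimmer probe set, whose log2 FSK/PMA difference of 0.91 exceeded the 0.22 of the first.

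From squalene onward all 9 genes had a signal at least as high with FSK/PMA as without, where 4070 of all 9395 measured genes were higher. At 1.5-fold, 7 of 9 were higher (77.8%, beside 14.9% of all genes), with a median log2 difference of 1.11. Sqle, the squalene epoxidase and a rate-limiting step, had signals of 2124, 5475 and 5268. This was 2.58-fold higher with FSK/PMA and nearly the same on both stimulated arrays. Nsdhl, a sterol dehydrogenase of C4 demethylation, had 1388, 3772 and 3643, or 2.72-fold higher, and its second probe set gave 2.29-fold. Cyp51, lanosterol demethylase, had 8769, 20305 and 17487, 2.32-fold higher, and Msmo1, the C4 methyl sterol oxidase, had 9565, 20619 and 18329, 2.16-fold higher. Both of these were slightly lower on the NFIL3 array than on the FSK/PMA array.

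Sc5d, the sterol C5 desaturase, had signals of 759.8, 1934 and 1235, 2.55-fold higher with FSK/PMA. Its other probe sets differed by 0.45 and 0.88 on the log2 scale, against 1.35 for the first. Lss, which closes squalene epoxide to lanosterol, had 1497, 2692 and 2458, 1.80-fold higher, and a second, dimmer probe set differed by 1.83. Dhcr7, the last reductase of the route, had 5072, 8773 and 7958, 1.73-fold higher, or 0.57 on the log2 scale with cyclic loess. Fdft1, squalene synthase, had 2694 and 3425, and Tm7sf2, a sterol C14 reductase, had 1825 and 1838, both within 1.5-fold.

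**Figure D2:**
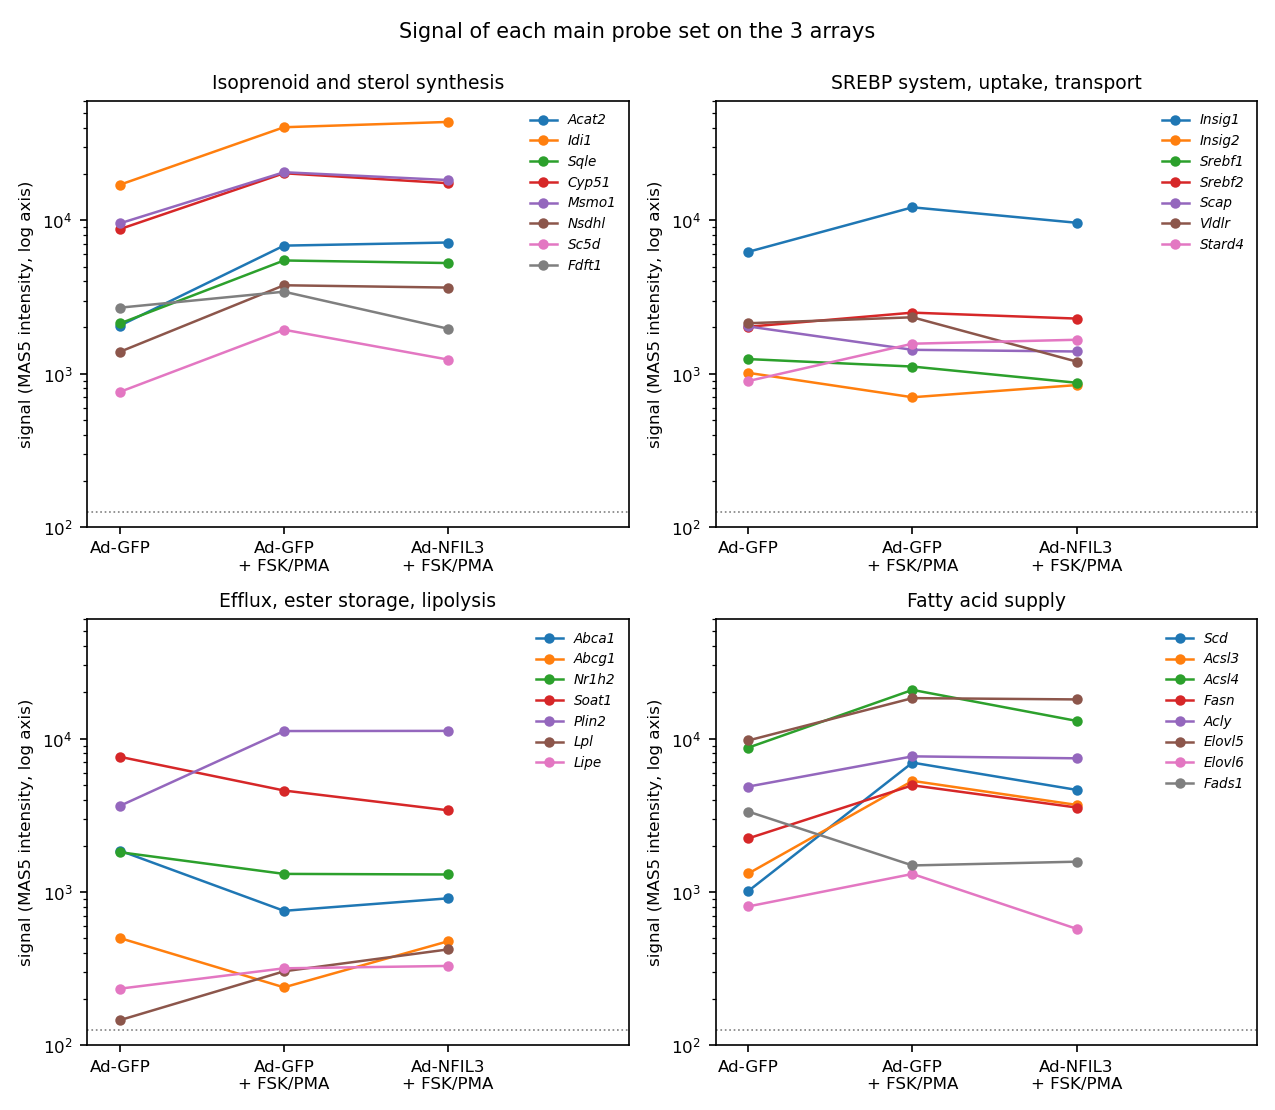
MAS5 signal on a log axis of 30 lipid supply genes on the 3 arrays, 1 point per array, with the floor of 126 as a dotted line. Idi1, Sqle and Nsdhl reach similar signals on both stimulated arrays, Vldlr and Elovl6 are lowest on the NFIL3 array, and Abca1 and Fads1 are highest on the control array.

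The sterol sensing genes gave small and mixed differences except for Insig1. Insig1, itself a known SREBP target, had signals of 6238, 12169.9 and 9650.1, 1.95-fold higher with FSK/PMA. Insig2, the related retention protein, had 1011, 701 and 842, and its second probe set had 446, 270.4 and 578, so both probe sets were lowest with FSK/PMA (log2 -0.53 and -0.72). Srebf2, the factor that mainly drives sterol genes, had 2023, 2500 and 2287, and Srebf1, which mainly drives fatty acid genes, had 1244, 1112 and 872. Scap had 2031, 1430 and 1395 on its brightest probe set, a log2 difference of -0.51, while a probe set near the floor differed by 0.62. On their brightest probe sets none of these 4 genes passed 1.5-fold with FSK/PMA.

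Promoter sequence was set beside these values, since many of the genes stood higher together. RefSeq promoters of build GRCr8, from 250 bases before to 50 after the annotated start, were found by symbol for 34 of the 44 genes. Each was searched on both strands. The NF-Y box CCAAT was in 21 of 34 (61.8%), beside 38.4% of the 7952 promoters of genes measured with FSK/PMA and 37.7% of all 27457. It was in 11 of the 18 genes at least 1.5-fold higher with FSK/PMA and in 10 of the other 16. The E-box CACGTG was in 6 of 34 (17.6%), beside 10.0% of measured genes, and the cAMP response element TGACGTCA was in 1, Elovl5, beside 3.41%. The SREBP motif TCACNCCAC was in 0 of 34 and in 1.09% of measured genes. The NFIL3 and PAR bZIP motif TTACGTAA was in 0 of 34 and in 0.163%, and its looser form TTANNTAA, which includes the first, was in 1, Insig2, beside 2.97%. At shares as low as 1.09% and 0.163%, 34 promoters can hold none, so the 0 counts do not set these genes apart. Other forms of the SREBP site were not searched. The GC box GGGCGG was in 25 (73.5%), beside 64.9%.

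The promoters of 6 genes are shown: Idi1, Nsdhl and Msmo1 as sterol enzymes with several NF-Y boxes, Insig1 and Insig2 because their FSK/PMA differences had opposite signs, and Elovl5 for the cAMP element. They lie at chr17:66547475-66547774 on the minus strand (Idi1), chrX:155817110-155817409 on the plus strand (Nsdhl), chr16:29746863-29747162 on the plus strand (Msmo1), chr4:8057720-8058019 on the minus strand (Insig1), chr13:35040049-35040348 on the minus strand (Insig2) and chr8:87670914-87671213 on the plus strand (Elovl5), and read 5′ to 3′ along the gene. Capitals mark the motifs named above other than the GC box, on either strand, so that an NF-Y box also appears as ATTGG. In Insig2 the longer capital run is the loose bZIP form, and in Elovl5 it is the cAMP element.
Idi1: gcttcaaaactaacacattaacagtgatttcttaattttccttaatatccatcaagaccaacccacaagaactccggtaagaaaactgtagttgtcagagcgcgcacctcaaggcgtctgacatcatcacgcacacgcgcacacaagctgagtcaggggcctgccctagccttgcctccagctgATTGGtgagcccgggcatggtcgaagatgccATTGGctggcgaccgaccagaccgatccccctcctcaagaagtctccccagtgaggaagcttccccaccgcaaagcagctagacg
Nsdhl: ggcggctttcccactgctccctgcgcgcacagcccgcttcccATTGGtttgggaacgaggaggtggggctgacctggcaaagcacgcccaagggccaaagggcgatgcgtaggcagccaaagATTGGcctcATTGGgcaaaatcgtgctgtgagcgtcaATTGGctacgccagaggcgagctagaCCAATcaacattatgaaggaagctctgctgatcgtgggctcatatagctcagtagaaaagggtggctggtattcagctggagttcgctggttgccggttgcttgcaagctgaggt
Msmo1: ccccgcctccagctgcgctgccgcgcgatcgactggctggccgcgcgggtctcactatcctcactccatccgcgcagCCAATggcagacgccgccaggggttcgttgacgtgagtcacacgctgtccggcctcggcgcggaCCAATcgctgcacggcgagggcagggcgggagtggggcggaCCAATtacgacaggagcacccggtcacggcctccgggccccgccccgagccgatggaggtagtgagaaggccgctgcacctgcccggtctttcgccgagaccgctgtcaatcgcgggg
Insig1: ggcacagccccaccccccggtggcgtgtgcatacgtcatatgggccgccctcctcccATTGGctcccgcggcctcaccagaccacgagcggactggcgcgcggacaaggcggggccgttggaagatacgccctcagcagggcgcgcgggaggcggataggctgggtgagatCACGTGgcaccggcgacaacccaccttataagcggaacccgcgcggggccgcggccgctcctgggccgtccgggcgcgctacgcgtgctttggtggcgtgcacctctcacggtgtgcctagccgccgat
Insig2: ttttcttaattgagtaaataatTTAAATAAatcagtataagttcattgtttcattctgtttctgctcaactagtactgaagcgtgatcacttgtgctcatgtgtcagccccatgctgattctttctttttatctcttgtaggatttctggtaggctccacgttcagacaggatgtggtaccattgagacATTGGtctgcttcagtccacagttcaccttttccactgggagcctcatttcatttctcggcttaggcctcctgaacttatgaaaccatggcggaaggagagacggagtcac
Elovl5: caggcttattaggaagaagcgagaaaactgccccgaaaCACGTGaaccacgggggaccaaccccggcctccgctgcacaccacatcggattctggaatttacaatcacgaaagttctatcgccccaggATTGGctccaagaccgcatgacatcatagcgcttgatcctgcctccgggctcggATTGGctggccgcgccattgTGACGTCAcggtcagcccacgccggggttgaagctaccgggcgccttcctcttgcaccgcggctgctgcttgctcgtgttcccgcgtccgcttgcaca

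Idi1 held 2 NF-Y boxes, Msmo1 3 and Nsdhl 5, and in each the box nearest the start began 35 to 68 bases before it. In Elovl5 the cAMP element began 48 bases before the start, with NF-Y boxes at 68 and 122. Insig1 had an E-box at 79 bases and an NF-Y box at 193 bases before the start, and Insig2 an NF-Y box at 61 and the loose bZIP motif at 228. These are matches of letters and were not tested for binding. The Insig2 window may lie at an inner exon rather than at the promoter, which was not tested.

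Among uptake and transport genes, Stard4, a carrier of cholesterol through the cytosol, had signals of 895, 1567 and 1663, 1.75-fold higher with FSK/PMA and as high with NFIL3. Its other probe sets differed by 0.48 and 1.64 on the log2 scale. Vldlr, a lipoprotein receptor, had 2132 and 2332 on the control and FSK/PMA arrays, a difference of 0.13, and its other probe sets differed by 0.16, 0.32 and 0.65. Npc2, which hands lysosomal cholesterol onward, had 11039, 8923 and 7119.6, lowest on the NFIL3 array.

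The exporters stood lower with FSK/PMA. Abca1, which loads cholesterol onto lipid-poor apolipoprotein, had signals of 1856, 751 and 906, 2.47-fold lower, and its next brightest probe sets gave -1.15 and -1.30 against -1.31 on the log2 scale. Abcg1, which exports sterol to larger particles, had 499, 238 and 475, 2.10-fold lower. Its other 2 probe sets were under the floor on all arrays, and with the mean of all probe sets its log2 difference was -0.36 in place of -1.07. Nr1h2, LXR beta, had 1812, 1309 and 1297, a difference of -0.47.

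Storage genes differed in both directions. Plin2, which coats lipid droplets, had signals of 3637, 11195.5 and 11224, 3.08-fold higher with FSK/PMA and nearly equal on both stimulated arrays. Its second probe set differed by 1.44. Soat1, which esterifies cholesterol, had 7601, 4581 and 3403, 1.66-fold lower with FSK/PMA, and its second probe set had 1477, 1277 and 1016, a difference of -0.21. Lpl, lipoprotein lipase, had 145, 303 and 421, 2.08-fold higher, from a signal near the floor. Lipe, hormone-sensitive lipase, which frees cholesterol from esters in steroid-making cells, had 233, 317 and 328, within 1.5-fold.

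In fatty acid supply, 8 of 12 genes were at least 1.5-fold higher with FSK/PMA (66.7%, beside 14.9% of all measured genes). In the other direction 1 was at least 1.5-fold lower (8.33%, beside 24.0%). Scd had signals of 1013, 6965 and 4626, 6.88-fold higher, and only 0.681% of all measured genes had a larger difference. Its paralogue Scd2, which is no member, had 24164, 33183 and 30655, 1.37-fold higher on its brightest probe set. The dimmer Scd2 probe sets were 2.04-fold, 1.81-fold and 1.67-fold higher. Whether probe sets of either gene also bind the other transcript was not tested. Acsl3 and Acsl4 attach coenzyme A to long-chain fatty acids, the second with a preference for arachidonic acid. Acsl3 had 1317, 5295 and 3691, 4.02-fold higher, and Acsl4 had 8729.5, 20779.5 and 13042, 2.38-fold higher. In both the NFIL3 array lay between the other arrays. Acsl1 had 415, 484 and 517, within 1.5-fold, while a dimmer probe set had 172, 309.7 and 246, 1.80-fold higher with FSK/PMA.

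Fasn, fatty acid synthase, had signals of 2232, 4955 and 3549, 2.22-fold higher with FSK/PMA, and a dimmer probe set had 526, 918 and 563. Acly, which makes cytosolic acetyl-CoA from citrate, had 4862, 7654 and 7432, 1.57-fold higher, or 0.45 on the log2 scale with cyclic loess in place of 0.65. Aacs, which activates acetoacetate for lipid synthesis, had 728, 1139.9 and 1033, 1.57-fold higher, and Acaca, acetyl-CoA carboxylase, was within 1.5-fold (977 to 1166).

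The elongases and desaturases differed in direction. Elovl5, which elongates polyunsaturated fatty acids, had 9723, 18360.3 and 18006, 1.89-fold higher with FSK/PMA, and its second probe set differed by 1.03 on the log2 scale. Fads1, the delta-5 desaturase of arachidonic acid synthesis, had 3336, 1486 and 1572, 2.25-fold lower. Fads2, the delta-6 desaturase, had 467, 385 and 273, lowest on the NFIL3 array. Elovl6, which elongates saturated fatty acids, was 1.63-fold higher on its brightest probe set (803 to 1307), while the other differed by -0.18.

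**Figure D3:**
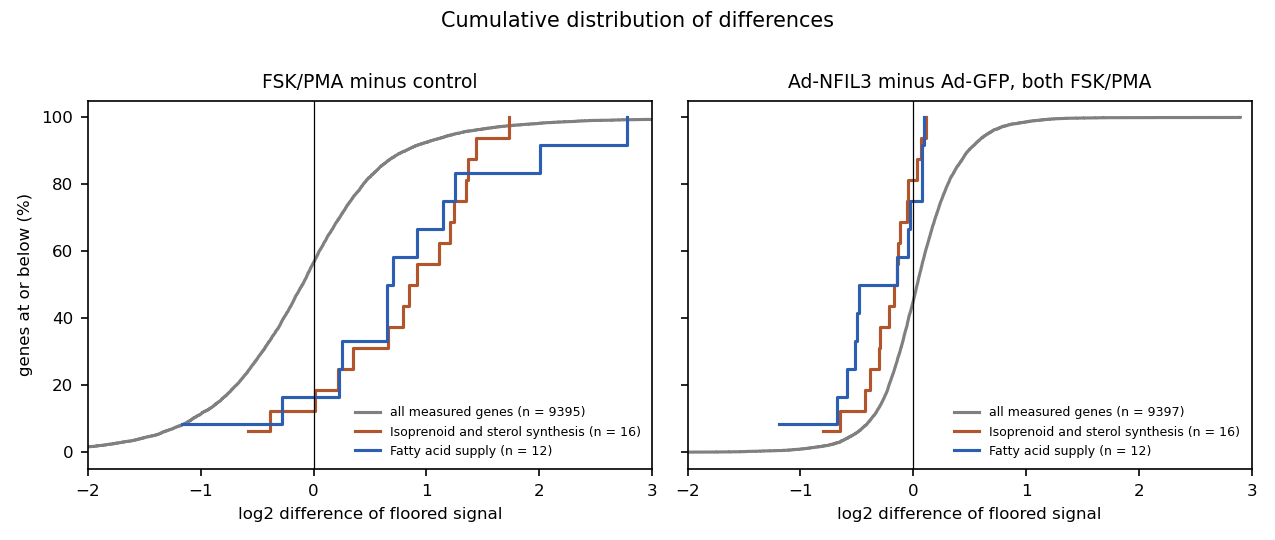
Cumulative share of genes at or below each log2 difference, for all measured genes (grey), 16 isoprenoid and sterol synthesis genes (orange) and 12 fatty acid supply genes (blue), 1 array per group. With FSK/PMA both coloured curves lie to the right of grey over most of their range (medians 0.88 and 0.68 beside -0.10), and with NFIL3 both lie to its left except at the low end, where the lowest of all genes reaches -2.48 (medians -0.16 and -0.31 beside 0.03).

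Other genes of the same pathways were grouped by role. Over all measured genes 7.43% were at least 2-fold higher with FSK/PMA and 11.4% lower. Of 7 further sterol and isoprenoid genes, 2 were at least 2-fold higher with FSK/PMA (28.6%) and 0 lower. Por, the electron donor of microsomal enzymes including CYP51 and squalene epoxidase, was 3.82-fold higher. Fdx1, which feeds electrons to mitochondrial side-chain cleavage, was 3.55-fold higher. Lbr was 1.97-fold and Ebp was 1.37-fold higher. Hsd17b7, Ggps1 and Dhdds differed by -0.03, 0.04 and -0.32 on the log2 scale. Of 15 further uptake, transport and ester genes, 2 were at least 2-fold higher and 2 lower (13.3% each). Scarb1, the lipoprotein receptor, was 5.04-fold and Star 4.89-fold higher, whereas Nceh1, a cholesterol ester hydrolase, was 3.39-fold and Lrp8 2.34-fold lower. Of 6 measured genes of the SREBP and LXR machinery 0 passed 2-fold, and the processing proteases Mbtps1 and Mbtps2 were 1.46-fold and 1.45-fold lower, with Rxrb 1.92-fold lower and Rnf139 1.62-fold higher.

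Of 9 further fatty acid synthesis genes measured, 2 were at least 2-fold higher (22.2%) and 0 lower. The all-gene shares were again 7.43% higher and 11.4% lower. Hacd3, of the elongation cycle, was 2.26-fold and Acsl5 2.24-fold higher. Me1, which supplies NADPH, was 1.80-fold and Hsd17b12 1.69-fold higher. In the glycerolipid list 2 of 12 were at least 2-fold higher and 2 lower (16.7% each). The fatty acid binding protein genes went apart, Fabp5 at 4.34-fold higher and Fabp3 at 2.53-fold lower, and Dgat1, of triglyceride synthesis, was 2.51-fold higher while the droplet protein gene Plin3 was 2.35-fold lower. Among 10 fatty acid oxidation and PPAR genes 0 passed 2-fold, with a median of 0.14. Pparg and Ppard were 1.85-fold and 1.61-fold higher and Cpt2 was 1.63-fold lower.

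The second comparison asked how NFIL3 alters these genes in stimulated cells, with Ad-GFP cells as the reference. Few supply genes differed by 2-fold: 0 of 43 were higher (1.34% of all 9397 measured genes were) and 1, Elovl6, was lower (0.958% of all genes). At 1.5-fold, 1 was higher (2.33%, beside 6.81% of all genes) and 6 were lower (14.0%, beside 4.25%). The median log2 difference was -0.13 over the supply genes and 0.03 over all genes. Of the supply genes 30 of 43 lay below 0 on their brightest probe sets, beside 4245 of all 9397. Probe sets disagreed in sign in 7 of the 21 supply genes with 2 or more measured. With arrays scaled to a common median the supply median was -0.37 and the all-gene median -0.20. That scaling moves every gene of an array by the same factor, so it leaves the gap between the medians nearly fixed. The medians lay closer together with quantile normalisation (-0.08 and 0.01) and with cyclic loess (-0.10 and -0.004), supply genes first. Median scaling moved the all-gene split from 58.3% higher to 20.2% (48 higher, 190 lower). The split was 44.8% with quantile normalisation and 42.2% with cyclic loess. This comparison shares its FSK/PMA array with the first.

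Elovl6 had signals of 1307 and 573, 2.28-fold lower with NFIL3, and the second probe set had 512 and 403, a log2 difference of -0.35. Vldlr was 1.95-fold lower (2332 to 1198) and all 4 of its probe sets were lower, by -0.96, -1.15, -0.54 and -0.50. Fdft1, the squalene synthase, was 1.74-fold lower (3425 to 1963), with a second probe set at -0.19. Among the sterol genes this was the lowest difference, and 1.86% of all genes had a lower value.

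Acsl4 was 1.59-fold lower with NFIL3 (20779.5 to 13042) on its single probe set. Sc5d was 1.57-fold lower (1934 to 1235), with other probe sets at -0.45 and -0.10, and Scd was 1.51-fold lower (6965 to 4626). By the mean of all probe sets Fdft1 and Sc5d differed by -0.50 and -0.40, and with quantile normalisation Scd differed by -0.48, all within 1.5-fold. Vldlr, Elovl6 and Acsl4 stayed past 1.5-fold lower in all 8 alternative settings.

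Abcg1 was the single gene past 1.5-fold higher, with signals of 238 and 475, a log2 difference of 1.00 that fell just short of 2-fold. By the mean of its probe sets, of which the other 2 were under the floor, it was 0.33. Abca1 went from 751 to 906, and its measured probe sets disagreed in sign (0.27, 0.69 and -0.19). Insig2 had differences of 0.26 and 1.10 on its probe sets.

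Of the 16 sterol synthesis genes 13 had a difference below 0 with NFIL3, beside 4245 of all 9397 genes. Of these, 2 were past 1.5-fold (12.5%, beside 4.25%). The median was -0.16 beside 0.03 over all genes. Acat2, Idi1 and Fdps differed by 0.07, 0.11 and 0.03. With median scaling these 3 lay below 0, and with quantile normalisation Sqle and Nsdhl lay above 0. Signs this close to 0 thus depended on the scaling. Fasn and Acsl3 were 1.40-fold and 1.43-fold lower, and a dimmer probe set of Fasn differed by -0.71. Cyp51 likewise differed by -0.22 on its brightest probe set and -0.65 on the other, and Plin2 by 0.00. Lpl was 1.39-fold higher.

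**Figure D4:**
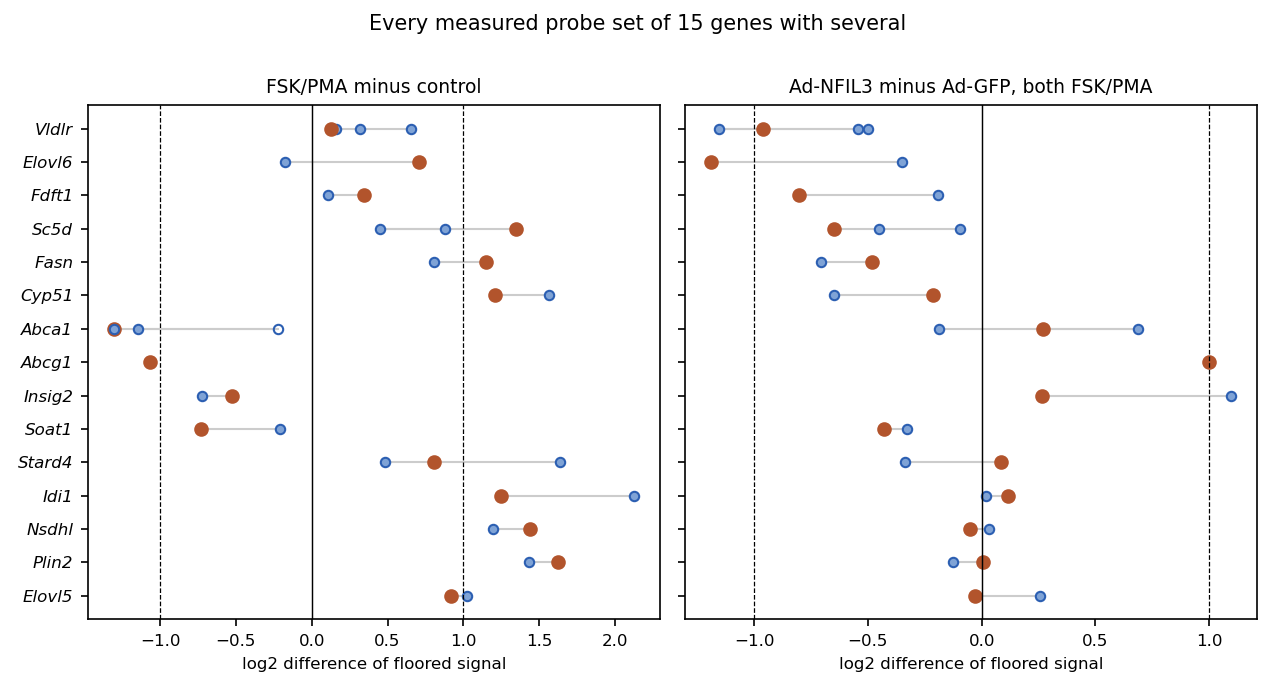
Log2 difference of each measured probe set for 15 lipid supply genes with several, FSK/PMA against control on the left and Ad-NFIL3 against Ad-GFP under FSK/PMA on the right. Orange points are the brightest probe set, blue points the others, open points a bound set by the floor and dashed lines 2-fold; all 4 Vldlr points lie below 0 on the right, and the Abca1 points there lie on both sides.

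Among the other pathway genes, NFIL3 differences past 2-fold were those of Angptl4, an inhibitor of lipoprotein lipase, at 4.03-fold higher (766 to 3085), and Cav1, of caveolae, at 2.04-fold higher (238 to 486). Lists without such genes were sterol synthesis (0 of 7), SREBP and LXR machinery (0 of 6), fatty acid synthesis (0 of 9) and fatty acid oxidation (0 of 10). The all-gene shares past 2-fold with NFIL3 were as low as 1.34% (upward) and 0.958% (downward). Lists of 6 to 10 genes can hold none at such shares, so these 0 counts do not set the lists apart. Por was 1.87-fold lower, Star 1.62-fold and Scarb1 1.45-fold lower, while Lcat, with signals near the floor, was 1.45-fold higher. Of the glycerolipid genes, Lpin1, of triglyceride synthesis, was 1.58-fold higher and Mgll at least 1.66-fold lower, to a signal under the floor.

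The comparison of the NFIL3 array with the unstimulated control, which shares an array with each of the others, gives the net difference of virus and stimulus. At 2-fold, 8 of 43 genes were higher (18.6%, beside 6.52% of 9647 measured genes) and 3 lower (6.98%, beside 9.05%). At 1.5-fold, 19 were higher (44.2%, beside 14.6%) and 8 lower (18.6%, beside 20.1%). The highest were Scd at 4.57-fold, Acat2 at 3.49-fold, Plin2 at 3.09-fold, Lpl at 2.89-fold and Acsl3 at 2.80-fold, and the lowest were Soat1 at 2.23-fold, Fads1 at 2.12-fold and Abca1 at 2.05-fold lower. Without probe sets marked as binding several transcripts Soat1 was read from its dimmer probe set, at -0.54 on the log2 scale in place of -1.16. Elovl6, Fdft1 and Vldlr were lower than in the control on their brightest probe sets, by 1.40-fold, 1.37-fold and 1.78-fold. The other Vldlr probe sets differed by -0.83, -0.39 and 0.15 on the log2 scale, and the mean of its probe sets by -0.47, within 1.5-fold. Mvd, Aacs and Acsl4 were 1.40-fold, 1.42-fold and 1.49-fold higher, and Fasn was 1.59-fold higher on its brightest probe set and 0.10 on the log2 scale on the other.

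Markers of other cells that these cultures could hold ranged from under the floor to bright. Theca and stroma markers summed to 789, 677 and 1029 over 5 genes, 3, 2 and 2 of them above the floor, with Cyp17a1 and Insl3 under it on all arrays and Dcn 2.45-fold higher with NFIL3. Leukocyte markers summed to 2028, 2624 and 2929 over 6 genes, 3 above the floor on each array, with Ptprc, Itgam and Adgre1 under it and Cd14 2.46-fold higher with FSK/PMA. Endothelial markers summed to 313, 410 and 406 over 3 genes, with Pecam1 under the floor. Oocyte markers summed to 1065, 606 and 508 over 5 genes, with Zp2 alone above the floor, and the red cell genes Hbb and Alas2 to 19937, 18366 and 15713. The 5 housekeeping genes had a median log2 difference of 0.33 with FSK/PMA, from 0.19 to 1.23 (Hprt1), and -0.05 with NFIL3. The granulosa markers given above had a median of -1.18 with FSK/PMA and -0.31 with NFIL3, and Cyp19a1 was at least 19.8-fold higher with FSK/PMA. In a pooled culture fewer cells of a type and less RNA per cell cannot be told apart. The part of these shifts in the lipid gene differences was not tested.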

How the data were processed

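RNA of rat granulosa cells was hybridised to 1 Affymetrix array per group. The deposited values are an intensity per probe set, made by the authors with MAS5 per the submitters' processing notes, whose version was not given in the sources used here. All 3 deposited columns had a 2% trimmed mean of 500.2, and the exact trimmed means were equalised here. Gene names came from the platform annotation (1 gene for 20832 probe sets, several for 436 and none for 9831), with symbols updated by Entrez ID through RefSeq GRCr8. Log2 differences were taken above the floor with Python 3.11.15, and limma 3.58.1 gave cyclic loess. A gene is counted past 1.5-fold or 2-fold. With 1 array per group there are no p-values, and precision is limited by this number of arrays. The code was checked on simulated data. The members and lists were chosen with earlier results of these data known. Members past 1.5-fold in any comparison are given by array, and of each other list up to 4 genes with the largest differences. For FSK/PMA all 7 further sterol and isoprenoid genes are given. The lists are not complete pathways. Alternatives were other scalings, floors, a pseudocount of 16 and other probe set rules.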

Additional observations from a re-analysis of the deposited data

How the results depend on the processing

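With 1 array per group no replicate could be left out, and no paired analysis was possible because each group had 1 array. The alternatives were median, quantile and cyclic loess scaling, floors at the 25th and 75th percentile, a pseudocount of 16 without a floor, the mean of all probe sets, and the omission of probe sets marked as binding several transcripts. No supply gene past 1.5-fold reversed its direction under any of these 8; the 75th percentile floor left 38 of the 43 supply genes measured and gave no value for Abcg1, Acsl1, Fads2, Lipe and Lpl. Of the genes past 1.5-fold, 21 of 27 stayed past 1.5-fold in the same direction in each setting that measured them with FSK/PMA, 3 of 7 with NFIL3 and 18 of 27 for NFIL3 with FSK/PMA against control. The median of the supply genes with NFIL3 went from -0.13 to -0.37 with median scaling, where the median of all genes went to -0.20. With cyclic loess the FSK/PMA log2 differences of Idi1, Cyp51, Msmo1 and Acsl4 were 0.83, 0.90, 0.79 and 0.95, under 2-fold. Genes at least 2-fold lower with NFIL3 numbered 3 with median scaling, 2 without multi-transcript probe sets and 0 with the mean of probe sets, in place of 1. The pseudocount gave 1 gene at least 2-fold higher with NFIL3 in place of 0. The mean of probe sets left 1 gene at least 2-fold lower with FSK/PMA and 1 for NFIL3 with FSK/PMA against control, in place of 3 each. The cause of these shifts was not tested. Signals near the floor limit Nr1h3, Lpl, Lipe and the dimmer probe sets.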
